A study of Mus musculus with 4 samples.

Results

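The collagen genes were followed on 4 one-colour Affymetrix arrays of mouse eye tissue that the labels call retina. Their members are all probe sets whose annotation gives exactly 1 gene symbol, made of Col, a number, the letter a and a number. This rule, which uses no measured value, took 82 of the 45101 probe sets on the array and covered 42 of the 18193 genes with such a symbol. All 42 symbols were still current for their gene identifiers, and no probe set with several symbols held a collagen. They were divided into 11 fibrillar, 6 basement membrane, 9 fibril-associated and 16 other collagens. By its labels, the study compared retina of control animals with retina of transgenic animals whose aqueous humor contained transgene-made myocilin, a glycoprotein that cells secrete. The series title gives the effect of myocilin on the retina as the question, and the labels state that its level there would be high, not that it was measured. There were 2 control arrays, which the labels call technical replicates and which were averaged into 1 sample, and 2 transgenic arrays, taken as 2 samples. Strain, age, sex, transgene promoter, the number of lines and whether tissue was pooled are not given in the sources used here. Because no label says whether each transgenic array had its own animal, the p-values apply to these samples alone, and their spread may be technical. In the main fit that spread is the one between the 2 transgenic arrays, weighed with that of all probe sets tested. The spread between the control arrays enters neither its p-values nor its standard errors.

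Collagens are extracellular proteins built from 3 chains that wind into a triple helix, and each gene encodes 1 kind of chain. Fibrillar collagens form the load-bearing fibres of sclera and corneal stroma, and fibril-associated collagens sit on the surface of those fibres. Type IV collagens form the sheet of basement membranes. Other members build beaded filaments, the lattice of Descemet's membrane behind the cornea, anchoring fibrils, or span the membrane of epithelial cells.

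The label retina was checked against marker genes. Of 9 rod photoreceptor markers with a probe set, 0 exceeded a mean signal of 150, the trimmed mean of every array, while 8 of 9 markers of collagen-making connective tissue and 7 of 7 markers of corneal and surface epithelium did. Of the 9 rod markers 6 were too dim to be tested, so these markers did not bear out the label, and the tissue is called by its label only. Signals are linear intensities, and differences are given as transgenic minus control on the scale of log2(signal + 16), a scale that shrinks the change of dim ones. Median signals lay between 47.1 and 50.3 on the 4 arrays. A probe set was tested where its mean log2 value exceeded the 40th percentile, a signal of about 30.0. Since the arrays hold bulk tissue, fewer cells of a type and less RNA per cell cannot be told apart.

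No collagen probe set passed the test at an adjusted p of 0.05 (0 of 63 tested in limma), and the background was small, with 0.0777% of all 27022 tested probe sets called and 0.126% of all genes. At an unadjusted p under 0.05 there were 5 of 63 collagen probe sets against 7.06% of all probe sets. Of these, 4 were higher in the transgenic samples (background 4.14%) and 1 was lower (background 2.92%). The 1 lower was Col17a1, a collagen that spans the membrane of basal epithelial cells, and the 4 higher belonged to the fibrillar genes Col5a2, with 2 probe sets, and Col3a1, and to Col8a1 of Descemet's membrane. For each gene the brightest probe set, the one with the highest mean, was then used, which left 36 of 42 genes tested. They included 3 genes with an unadjusted p under 0.05 that were higher and 1 that was lower, against 4.65% and 3.41% of all genes, or 8.06% in both directions. Of these 36, both transgenic arrays lay above both control arrays for 10 genes and below them for 7, and the groups overlapped for 19. The same held for 22.8% and 24.0% of all 12722 genes tested, together 46.8%, so the collagens' 47.2% without overlap lay at the background. Col22a1, which entered only through its transgenic signal, is among the 10 higher genes and in the further collagen counts and medians given here. Of the 63 probe sets, 19 were higher and 10 lower on both transgenic arrays, together 46.0%, beside 21.1%, 23.6% and 44.7% of all probe sets. Differences above 0 were found for 17 of 36 collagen genes and 35 of 63 collagen probe sets, beside 48.1% of all genes and 46.9% of all probe sets. The median difference was −0.011 over the collagen genes and −0.011 over all genes. With 1 transgenic array alone, the collagen median was 0.084 for array 1 and −0.082 for array 2, and the median difference of control array 2 from control array 1 was −0.081.

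**Figure D1:**
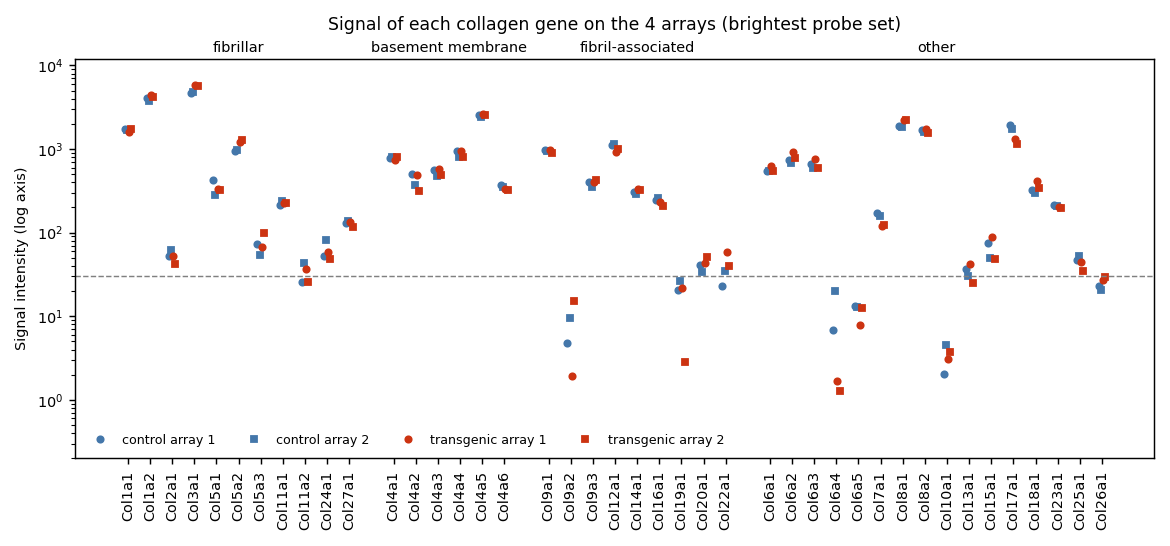
Signal intensity (log axis) of the probe set with the highest mean of each of the 42 collagen genes on 2 control arrays (blue) and 2 transgenic arrays (red), by class, with circles for array 1 and squares for array 2. The dashed line marks the signal of about 30.0 above which probe sets were tested, and the 4 symbols of most genes above it lie close together, while those of Col17a1 stand apart by group.

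**Figure D2:**
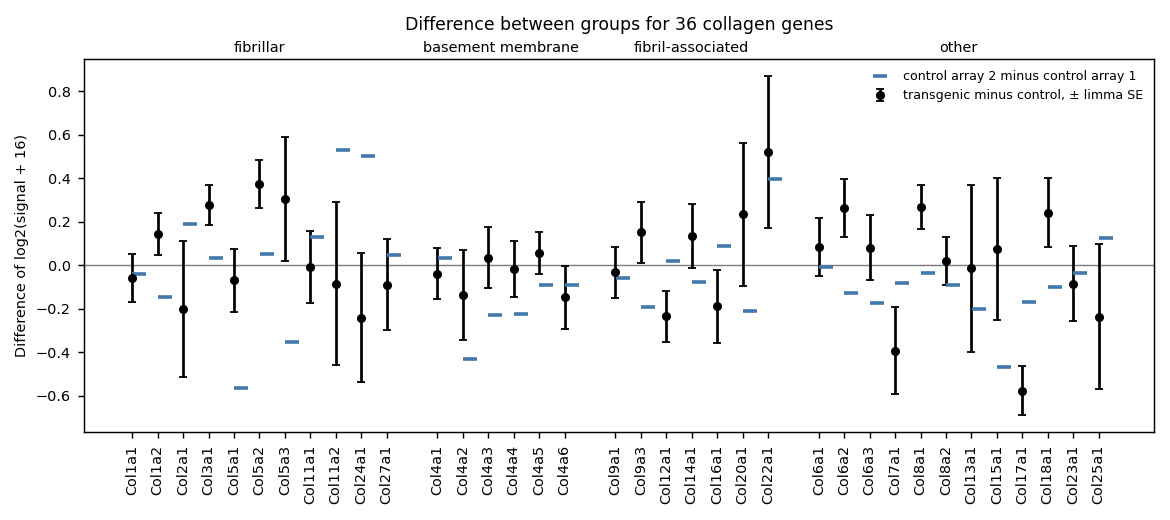
Difference of log2(signal + 16) between transgenic and control samples for the 36 tested collagen genes (black, ± limma standard error) and between the 2 technical control arrays (blue bar). Col17a1 lies lowest at −0.58, and for Col5a1 and Col4a2, among others, the control arrays differ from each other by more than the groups do.

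Promoter sequence could be set beside 3 of the 4 genes with an unadjusted p under 0.05. These windows are printed so that the motifs before the start of the 1 gene that was lower can be read beside those of 2 that were higher. The RefSeq table of build GRCm38.p6 held windows for 33 of the 42 collagen genes, and Col5a2 had none there. The 150 bases before the annotated start of Col3a1 (chr1:45311388-45311537, + strand), Col8a1 (chr16:57754738-57754887, − strand) and Col17a1 (chr19:47692043-47692192, − strand) read as follows, 5′ to 3′ on the gene's strand. Capitals mark TATAAA (the letters of a TATA box), CCAAT (those of the box of that name) and CCGCCC (those of a GC box), each searched on both strands, and no match overlapped another here.
Col3a1: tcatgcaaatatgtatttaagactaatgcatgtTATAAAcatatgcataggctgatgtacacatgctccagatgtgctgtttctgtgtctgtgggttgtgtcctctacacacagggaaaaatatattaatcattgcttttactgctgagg
Col8a1: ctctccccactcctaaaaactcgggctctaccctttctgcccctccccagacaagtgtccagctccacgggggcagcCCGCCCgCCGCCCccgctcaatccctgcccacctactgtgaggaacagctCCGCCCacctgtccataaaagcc
Col17a1: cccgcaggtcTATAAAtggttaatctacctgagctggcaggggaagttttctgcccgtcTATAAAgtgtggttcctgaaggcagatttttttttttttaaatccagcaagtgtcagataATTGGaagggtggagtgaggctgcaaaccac
Col3a1 held TATAAA once, 117 bases before the start, and Col17a1 held it 2 times, 91 and 140 bases before the start. Col17a1 also held CCAAT on the opposite strand, and Col8a1 held CCGCCC 3 times, the nearest 23 bases before the start. TATAAA was found in 4 of the 36 collagen windows and in 7.57% of all 32851 windows of this length in the table. CCAAT was found in 8 of the collagen windows and in 24.5% of all windows. CCGCCC was found in 18 of the collagen windows and in 28.6% of all windows. A match of letters is a description and not a binding site.

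Among the fibrillar collagens, the chains Col3a1 and Col5a2 gave higher signals on both transgenic arrays on every tested probe set, while Col1a1 did not differ beyond its error. Col3a1, the single chain of type III collagen, which shares fibres with type I, had signals of 4692 and 4801 in control and 5776 and 5717 in transgenic samples. The groups did not overlap, and the difference was 0.28 ± 0.09 (log2, SE; adjusted p = 0.531). Its second probe set stood at 0.22 ± 0.12. After quantile normalization Col3a1 stood lower, at 0.15 (limma adjusted p = 0.711). Col5a2, a chain of type V collagen, which sits inside type I fibrils and limits their width, read 937 and 972 in control and 1206 and 1278 in transgenic samples. Again no arrays overlapped, with a difference of 0.37 ± 0.11 (adjusted p = 0.426), and a second probe set stood at 0.35 ± 0.13. In the RefSeq gene order Col3a1 and Col5a2 are next to each other on chromosome 1.

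Type I collagen, the main fibre protein of sclera and cornea, is made of Col1a1 and Col1a2 chains, and the 2 genes were not alike in their values. Col1a1 had signals of 1757 and 1707 in control and 1579 and 1754 in transgenic samples, and the arrays overlapped. Its difference was −0.06 ± 0.11, with a 95% interval, unadjusted for the number of tests, from −0.30 to 0.18, and its second probe set stood at 0.01 ± 0.14. Col1a2 read 4107 and 3709 in control and 4427 and 4198 in transgenic samples, so both transgenic arrays were above both control arrays. The difference was 0.14 ± 0.10 on this probe set and 0.21 ± 0.11 on a second (adjusted p = 0.839 and 0.747), while a further dim one stood at 0.06 ± 0.37. After quantile normalization Col1a2 stood at 0.047. The change of Col1a2 exceeded that of Col1a1 by 0.31 on transgenic array 1 and 0.09 on array 2, and this quantity differed by 0.11 between the control arrays. The difference between the chains was not tested.

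Col5a1, the partner chain of Col5a2, depended on the probe set and on the control array. Its brightest probe set read 420.5 and 279 in control and 329 and 324 in transgenic samples, so the transgenic values fell between those of the technical replicates. The difference was −0.07 ± 0.15 there, 0.25 ± 0.16 on a second probe set with no overlap between groups, and −0.13 ± 0.30 on a further one. Without control array 1 the first of these became 0.21, and without control array 2 it became −0.35. The change of Col5a2 exceeded that of Col5a1 by 0.39 and 0.50 on the transgenic arrays, but this quantity also differed by 0.62 between the control arrays. Col5a3, a further type V chain, read 73.7 and 54.2 in control and 66.9 and 100.1 in transgenic samples, a difference of 0.31 ± 0.29 with overlapping arrays. The other 5 fibrillar genes were Col2a1, Col11a1, Col11a2, Col24a1 and Col27a1, and on their brightest probe sets the differences lay between −0.24 and −0.01 with overlap in each. A second probe set stood at 0.30 ± 0.19 for Col11a1, higher on both transgenic arrays, and at 0.14 ± 0.26 for Col27a1, so both genes had probe sets on either side of 0. Col2a1 and Col11a2, best known from cartilage, had mean control signals of 56.8 and 34.6, and 1 of 6 cartilage markers exceeded 150. In all, 3 of 11 fibrillar genes had no overlap, or 27.3% beside 46.8% of all genes, all 3 of them higher, and the class median was −0.06. Its sign turned, to 0.024, when all tested probe sets of each gene were averaged, so no direction is given for the class.

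Among markers of tissues rich in fibrillar collagen, 1 passed the test, Kera of the corneal stroma. The 9 connective tissue markers, which include Col1a1 and Col3a1, had summed signals of 18311 and 17477 in control and 22145 and 22068 in transgenic samples, with 5 higher and 1 lower on both transgenic arrays, beside 22.8% and 24.0% of all genes. Of these 9, 3 stood below 0, Col1a1, Pdgfra and Thy1, and Dcn, Lum and Col3a1 are the brightest members of the sum that were higher. The 5 corneal stroma markers had sums of 25602 and 25626 in control and 30381 and 33032 in transgenic samples, and all 5 were higher on both. The brightest of them, Aldh3a1, read 10523 and 10439 in control and 10541 and 12158 in transgenic samples, or 0.11 ± 0.10. It is also in the list of corneal and surface epithelium. Lum is in both the connective tissue and the stroma list, and the fibril surface list described further on holds it too, with Kera, Ogn and Dcn. None of these markers was at 0, and the lowest single signal in the 2 lists was 75.0, for Thy1. The 6 tested pigment epithelium markers were all higher on both transgenic arrays with a median difference of 0.63, and 2 passed the test in limma. Of 9 skeletal muscle markers, 8 were higher on both and 1 was lower, with a median of 0.48, and 3 passed the test. Among all genes 0.126% passed it. The part of these tissues in the collagen values was not tested.

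The basement membrane class, which holds type IV chains alone, had the narrowest range of differences of the 4 classes and also the fewest tested genes. Col18a1, also of basement membranes, is counted with the other collagens and described further on. The type IV chains Col4a1 and Col4a2 wind together in nearly all basement membranes, while Col4a3, Col4a4, Col4a5 and Col4a6 serve more specialised ones. On their brightest probe sets the 6 genes stood between −0.15 and 0.06, with a median of −0.027 and a median absolute difference of 0.047. The median absolute difference between the 2 technical control arrays was 0.16 for these genes, and between the transgenic arrays it was also 0.16. For Col4a1 the signals were 782 and 801 in control and 748 and 794 in transgenic samples, a difference of −0.04 ± 0.12 with a 95% interval from −0.30 to 0.22. A second Col4a1 probe set stood at −0.06 ± 0.20. Col4a5 read 2554 and 2396 in control and 2607 and 2541 in transgenic samples, a difference of 0.06 ± 0.10 with an interval from −0.16 to 0.27. The arrays of both genes overlapped, and for 5 of the 6 genes array 1 was the higher in each group.

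Col4a2 showed this split within the groups most plainly, with 508 and 373 in control and 490.5 and 318 in transgenic samples. Its difference of −0.13 ± 0.21 was smaller than the difference between technical replicates of −0.43. Col4a3 read 565 and 481 in control and 582 and 491 in transgenic samples, a difference of 0.04 ± 0.14. A second Col4a3 probe set stood at 0.11 ± 0.18. Col4a4 read 947 and 809.7 in control and 941 and 797 in transgenic samples, a difference of −0.02 ± 0.13. Further Col4a4 probe sets stood at 0.11 ± 0.13 and 0.07 ± 0.19 with overlap, so its probe sets lay on either side of 0. Col4a6 was the only gene of the class on whose brighter probe set no arrays overlapped, at 374 and 350.3 in control and 328 and 323 in transgenic samples, a difference of −0.15 ± 0.14 (adjusted p = 0.917). In the RefSeq tables Col4a1 and Col4a2 start on opposite strands 21 bases apart, and Col4a5 and Col4a6 likewise 1343 bases apart. None of these 4 genes passed the test. On the brightest probe sets, the change of Col4a6 was below that of Col4a5 by −0.21 and −0.20 on the transgenic arrays. Between the control arrays this quantity was −0.00033, and the contrast was not tested. Second probe sets stood at −0.05 ± 0.15 for Col4a5 and −0.07 ± 0.16 for Col4a6, each with overlap. On transgenic arrays 1 and 2 these changed by 0.096 and −0.19 for Col4a5 and by −0.043 and −0.11 for Col4a6. There Col4a6 was the lower on array 1 and the higher on array 2, so the contrast depended on the probe set. The 7 vascular endothelium markers, of cells that lie on such membranes, had summed signals of 765 and 702 in control and 714 and 706 in transgenic samples.

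Fibril-associated collagens, which coat fibrils rather than form them, stood on both sides of 0. Of 7 tested genes, Col22a1 entered only through its transgenic signal and is left out of the count. Of the other 6, 3 were higher on both transgenic arrays, 2 were lower on both and 1 overlapped, beside 22.8% higher and 24.0% lower among all genes. Col12a1, which decorates type I fibrils in dense connective tissue, read 1128 and 1146 in control and 918 and 1012 in transgenic samples. Both transgenic arrays were lower, by −0.23 ± 0.12 (adjusted p = 0.751), and a second tested probe set stood at −0.22 ± 0.15 with no overlap. Col16a1 read 246 and 263 in control and 233 and 210.3 in transgenic samples, a difference of −0.19 ± 0.17.

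Col9a3 and Col9a1 encode chains of type IX collagen, found in cartilage and the vitreous. Col9a3 read 399 and 347 in control and 405 and 426 in transgenic samples, a difference of 0.15 ± 0.14, and a second probe set stood at 0.42 ± 0.20 (adjusted p = 0.905 and 0.721). Its transgenic arrays were higher on both probe sets. Col9a1 read 986 and 945 in control and 985 and 904 in transgenic samples, a difference of −0.03 ± 0.12 with overlap. A second Col9a1 probe set stood at −0.07 ± 0.15, lower on both transgenic arrays. Col14a1, another collagen of fibril surfaces, stood at 0.13 ± 0.15 on one probe set and −0.24 ± 0.22 on another, each without overlap between the groups, so its 2 probe sets gave opposite directions. Col22a1, a collagen of muscle and tendon junctions, read 22.9 and 35.2 in control and 57.9 and 39.4 in transgenic samples, or 0.52 ± 0.35. Its control mean was under the filter, and a second probe set stood at −0.13 ± 0.37. Col20a1 was as dim, at 41.4 and 33.6 in control and 43.1 and 50.6 in transgenic samples, or 0.23 ± 0.33.

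Col17a1 had the lowest p of the family. It is the transmembrane collagen of hemidesmosomes, the rivets that hold basal epithelial cells to their basement membrane. Its single probe set read 1953 and 1734 in control and 1304 and 1159.8 in transgenic samples. Both transgenic arrays were lower than both control arrays, by −0.58 ± 0.11 (log2, SE), with a 95% interval from −0.82 to −0.33 unadjusted for the number of tests. The adjusted p was 0.212, and the probe set ranked 41 of 27022 by p. After quantile normalization the adjusted p was 0.0449, and with all 4 arrays as separate samples it was 0.0379. Over all settings tried without a replicate block it lay between 0.0379 and 0.999, the highest without the filter on signal. Without 1 array the difference ran from −0.66 to −0.49. Col7a1, whose anchoring fibrils tie that basement membrane to the stroma below, read 169 and 159 in control and 121 and 122 in transgenic samples. It too was lower on both transgenic arrays, at −0.39 ± 0.20 (adjusted p = 0.766).

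The epithelial markers did not share 1 direction with these 2 collagens. The 7 markers of corneal and surface epithelium had summed signals of 44793 and 44930 in control and 44646 and 47969 in transgenic samples, with a median difference of 0.01 and none at 0. Of these 7, 3 were higher and 3 lower on both transgenic arrays, beside 22.8% and 24.0% of all genes. The 3 higher include Aldh3a1, which is also in the corneal stroma list. Krt5 and Krt14, keratins of basal epithelial cells, stood at 0.01 ± 0.10 and 0.05 ± 0.10. Krt4 and Krt13, keratins of non-cornified surface epithelia, stood at −0.36 ± 0.10 and −0.20 ± 0.10, and Krt12 of the corneal epithelium at 0.22 ± 0.09, with adjusted p between 0.397 and 0.722. The part of an altered mix of epithelia in the Col17a1 value was not tested.

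Col8a1 and Col8a2 encode the chains of type VIII collagen, the lattice of Descemet's membrane. Col8a1 read 1876 and 1830.1 in control and 2250.1 and 2222.0 in transgenic samples, so the groups were well apart and the arrays within each close. The difference was 0.27 ± 0.10 (adjusted p = 0.609), and its other 2 probe sets stood at 0.26 ± 0.12 and 0.34 ± 0.18, also without overlap. Col8a2 read 1680.3 and 1576 in control and 1731 and 1573 in transgenic samples, a difference of 0.02 ± 0.11 with overlap. The change of Col8a2 was below that of Col8a1 by −0.19 on transgenic array 1 and −0.31 on array 2, against −0.06 between the control arrays, and this contrast was not tested.

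The beaded filaments of type VI collagen are built from Col6a1, Col6a2 and Col6a3, which surround many cells of connective tissue and muscle. Col6a2 read 737 and 674 in control and 929.8 and 778 in transgenic samples, higher on both, at 0.27 ± 0.13 (adjusted p = 0.758). A second Col6a2 probe set stood at −0.01 ± 0.15, so the probe sets did not bear each other out. Col6a1 stood at 0.08 ± 0.13, and Col6a3 at 0.08 ± 0.15 with signals of 668 and 590.3 in control and 750.2 and 589 in transgenic samples. Col18a1, a basement membrane collagen with a heparan sulfate chain that yields the fragment endostatin, was higher on both transgenic arrays on both probe sets, at 0.24 ± 0.16 and 0.28 ± 0.17 (adjusted p = 0.830 and 0.805). The remaining tested genes were Col13a1, Col15a1, Col23a1 and Col25a1, whose brightest probe sets lay between −0.24 and 0.07. For Col23a1 the brightest stood at −0.08 ± 0.17 and 2 further ones at 0.18 ± 0.18 and 0.14 ± 0.18. Of the 12 tested genes in this mixed class, 3 were higher and 4 lower on both transgenic arrays, or 58.3% without overlap beside 46.8% of all genes.

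Col10a1, Col19a1, Col26a1, Col6a4, Col6a5 and Col9a2 had no tested probe set. With further dim probe sets of tested genes they made up 19 untested probe sets, whose signals lay between 0.59 and 45.2. Their differences ran from −0.99, for a probe set of Col25a1 with 24.5 and 45.2 in control and 11.5 and 6.71 in transgenic samples, to 0.88, for one of Col12a1 with 7.40 and 2.12 in control and 20.7 and 22.9 in transgenic samples. On these 5 were higher and 5 lower on both transgenic arrays, and 9 overlapped. Nothing is read from differences at this level.

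Genes with 2 or 3 tested probe sets allowed a comparison within the arrays, although probe sets of a gene may share part of their target. Of 22 such collagen genes, 12 had all probe sets on 1 side of 0 and 10 were mixed, or 54.5% on 1 side against 48.1% of the 5912 genes of the whole array with several tested probe sets. For 5 of the 22, every tested probe set was higher on both transgenic arrays, against 6.06% of those 5912 genes. They were Col3a1, Col5a2, Col8a1, Col9a3 and Col18a1. For 1, Col12a1, every tested probe set was lower on both, against 5.82%. Among those 5912 genes are some with more than 3 tested probe sets, whose probe sets less readily all agree. The shares are thus not matched to the collagens in the number of probe sets. Probe sets of a gene share arrays and samples, so these counts are no replicates and were not tested.

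**Figure D3:**
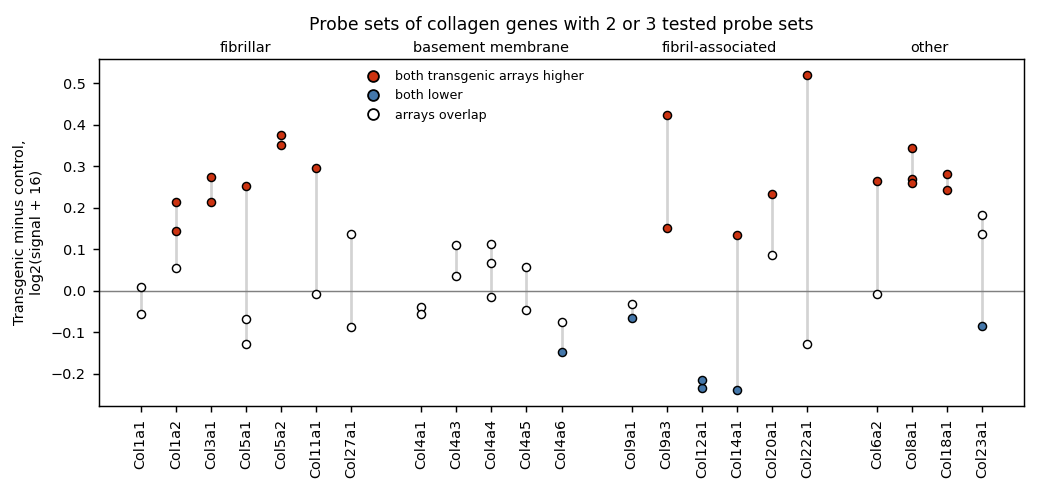
Difference between transgenic and control samples on log2(signal + 16) for every tested probe set of the 22 collagen genes with more than 1, by class, with a grey line joining the probe sets of a gene. Red points have both transgenic arrays above both control arrays, blue points both below, and open points overlap. All points of Col5a2 and Col8a1 are red and lie between 0.26 and 0.37, while the points of Col14a1 have opposite colours.

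The genes that make, cross-link, bind and remove collagen were described from 6 lists. Their counts stand beside 22.8% higher and 24.0% lower on both transgenic arrays among all genes, together 46.8%, and 8.06% at an unadjusted p under 0.05. Of all genes 0.126% were called in limma. Of 20 tested genes for modification and folding of chains in the endoplasmic reticulum, 7 were higher and 4 lower on both transgenic arrays, with a median of 0.03 and 0 called in limma (1 at an unadjusted p under 0.05). The collagen chaperone Serpinh1 read 1334 and 1521 in control and 1658 and 1639.6 in transgenic samples, or 0.21 ± 0.10. Mia3, which loads bulky collagens into secretory vesicles, stood at −0.37 ± 0.16, Tmem38b at 0.37 ± 0.19 and the prolyl hydroxylase P3h2 at −0.27 ± 0.17, with adjusted p between 0.666 and 0.822. Further tested Mia3 probe sets stood at −0.293 ± 0.22 and −0.286 ± 0.28, each lower on both transgenic arrays. For Tmem38b 3 further tested probe sets stood at 0.11, 0.14 and −0.10, all with overlap. Of 10 tested genes of procollagen cleavage and cross-linking, 6 were higher and 0 lower on both transgenic arrays, with a median of 0.11 and 0 called in limma (2 at an unadjusted p under 0.05). These 2 were Loxl1, a cross-linking lysyl oxidase, at 0.28 ± 0.12 and Pcolce, which speeds cleavage of the procollagen end, at 0.25 ± 0.09 (adjusted p = 0.679 and 0.608). A second probe set of Pcolce stood at 0.01 ± 0.14. The procollagen protease Bmp1 stood at −0.37 ± 0.31 on one probe set and 0.33 ± 0.30 on another.

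Genes of the fibril surface included the only member of the 6 lists past the threshold, which 0.126% of all genes passed. Kera, the keratocan of corneal stroma, rose by 1.54 ± 0.11 (limma adjusted p = 0.000286), with signals of 1008 and 1094 in control and 2939 and 3227 in transgenic samples. In this list 9 of 17 genes were higher and 2 lower on both transgenic arrays, with a median of 0.20 and 7 genes at an unadjusted p under 0.05, 6 higher and 1 lower. The lower one was Tgfbi, a matrix protein of the cornea, at 5172 and 5372 in control and 4068 and 4508 in transgenic samples, or −0.30 ± 0.10 (adjusted p = 0.531). Dpt, which binds decorin and collagen, stood at 0.57 ± 0.12 and Lum, a proteoglycan that spaces corneal fibrils, at 0.55 ± 0.10 (adjusted p = 0.217 and 0.113). These differences were larger than those of the fibrillar chains themselves, which reached 0.37, though the contrast was not tested. Of 15 tested basement membrane partners, 1 was higher and 5 were lower on both transgenic arrays, with a median of −0.10 and 0 called in limma (1 at an unadjusted p under 0.05). Agrn stood at −0.34 ± 0.18 and the laminin chains Lama5 and Lama3, the latter part of the laminin of hemidesmosomes, at −0.32 ± 0.20 and −0.30 ± 0.13, with adjusted p between 0.679 and 0.815. A second Lama5 probe set stood at −0.016 ± 0.29 with overlap.

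No collagen receptor, collagen-degrading enzyme or inhibitor passed the test. Of 7 tested receptors, 2 were higher and 0 lower on both transgenic arrays, with 0 called in limma (0 at an unadjusted p under 0.05). Cspg4 at 0.48 ± 0.38, Adgrg1 at −0.20 ± 0.40 and Lair1 at 0.16 ± 0.34 were dim, and Cspg4, without which the median was 0.0036, entered only through its transgenic signal, while the discoidin receptor Ddr1, with signals of 3443 and 3921 in control and 3257 and 3665 in transgenic samples, stood at −0.09 ± 0.11. Of 8 tested proteases and inhibitors, Mmp9 entered only through its transgenic signal, at 22.7 and 24.2 in control and 28.9 and 50.0 in transgenic samples, or 0.47 ± 0.39. Of the other 7, 3 were higher and 0 lower on both transgenic arrays, with a median of 0.07 and 0 called in limma (2 at an unadjusted p under 0.05). Fap, a fibroblast protease, stood at 0.37 ± 0.13 and Ctsk, which cuts the collagen helix, at 0.31 ± 0.14 (adjusted p = 0.569 and 0.679). The gelatinase Mmp2, also higher on both, stood at 0.30 ± 0.15 (adjusted p = 0.747), and the tested inhibitors Timp1, Timp2 and Timp3 overlapped. The remaining marker lists had medians of 0.08 for smooth muscle and pericytes, −0.06 for Schwann cells, 0.06 for vascular endothelium, −0.03 for cartilage and −0.03 for bone, the last over 1 tested gene. Of 5 tested lens markers, 4 had a control mean under the filter and entered only through their transgenic signal, so no median is given. Of these 4, 2 passed the test, Cryaa and Cryba1, beside 0.126% of all genes, and nothing is read from this count.

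**Figure D4:**
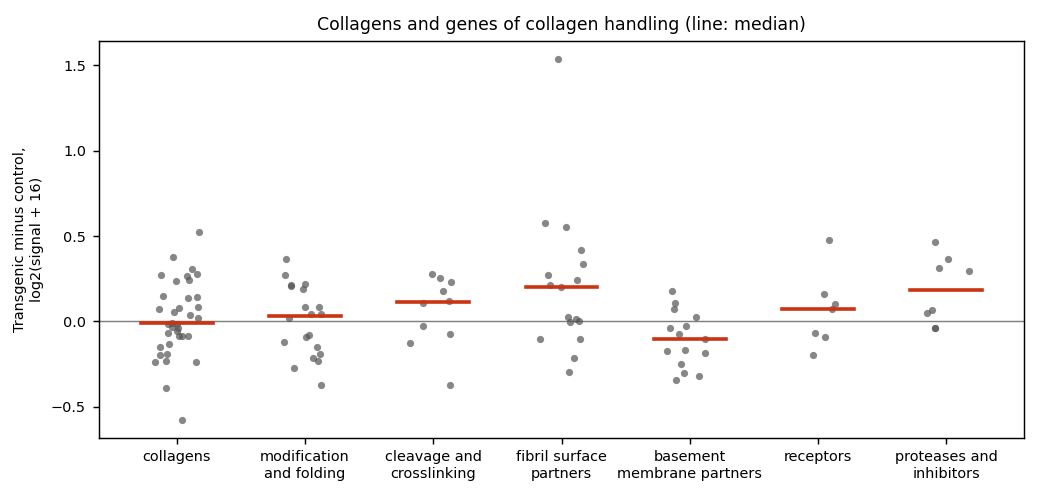
Difference between transgenic and control samples on log2(signal + 16) for each tested gene (points) of the collagen family and of 6 lists of collagen handling genes, with the median as a red line. The medians, here with Col22a1, Cspg4 and Mmp9 counted, lie between −0.10 and 0.20, and Kera at 1.54 in the fibril surface list stands apart from all other points.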

How the data were processed

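Total RNA was measured on 4 arrays. The deposited intensity of each probe set was a linear signal with a trimmed mean of 150 on every array (2% trimmed at each end), and software, settings and genome build are not given in the sources used here. Intensities were used as deposited, as log2(signal + 16). The 64 array controls were left out, 932 probe sets with several symbols named no gene, and 27022 probe sets above the 40th percentile of the mean were tested. Control arrays were averaged, and limma 3.58.1 in R 4.3.3 was fitted over all tested probe sets (eBayes with trend, two-sided, Benjamini-Hochberg), with 1 residual degree of freedom and 10.3 prior ones. With 1 control sample, its spread was taken to equal that of the transgenic ones. On simulated data of this design the fit gave calls of the right sign, but more false calls than its threshold allows, so a call here is less certain than its adjusted p states. The number of arrays limits precision.

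Genes named are, in each class, the 5 with the highest mean level and the 3 tested with the largest absolute difference, any past the threshold, Col1a1 and Col3a1, and the 3 tested with the largest difference in each list; others are named to complete a class or were chosen after their values were seen. The members and lists were chosen with earlier results of these data known. Promoter windows came from the RefSeq table, and the sequences shown were chosen after the values were seen. Alternatives covered scaling, pseudocount, filter, moderation, control arrays, left-out arrays and, for the medians alone, the probe set of a gene. The gene of the transgene is not reported here.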

Additional observations from a re-analysis of the deposited data

How the results depend on the processing

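No collagen probe set was called in limma under any alternative except after quantile normalization (1), with 4 arrays as separate samples and no block (1) and with the replicate block (8). In these settings 7, 13 and 17 of the 63 had an unadjusted p under 0.05, beside 1898, 3666 and 5067 of all 27022 tested probe sets. The 7 genes called with the block were Col17a1 (adjusted p = 9.14e-07), Col5a2, Col3a1, Col8a1, Col1a2, Col6a2 and Col12a1. The same-numbered arrays share only a number, with a correlation of 0.10 between their deviations over tested probe sets, so this pairing is not taken as real. Over the whole array the 21 calls became 39 after quantile normalization, 56 after median centring, 135 and, with the replicate block, 1740 with 4 arrays as samples, and 0 without the filter (2181 at an unadjusted p under 0.05) or the intensity trend (1059), and 14 to 33 without 1 control array. Without a transgenic array there was no test.

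Of 65 medians under alternatives, 47 moved by less than the pooled SD of the replicates. This count includes medians that could not move, so it overstates their stability. Settings with control arrays as separate samples leave every median as it was. Dropping the filter adds no gene to the fibrillar or basement membrane class, whose genes were all tested. The fibrillar median was −0.027 after median centring, −0.0082 at the 60th percentile filter and 0.024 with the mean over probe sets, and the fibril-associated median was 0.037 without the filter, −0.033 at the 60th percentile and −0.049 with the mean over probe sets. Except at the 60th percentile, the fibril-associated medians count Col22a1. In the main setting that median was 0.13 with Col22a1 and 0.051 without it. Without 1 array the medians ran from −0.082 to 0.088 for all collagens, −0.037 to 0.057 for fibrillar, −0.11 to 0.089 for basement membrane, 0.029 to 0.17 for fibril-associated and −0.10 to 0.20 for other collagens. Of 25 named collagens, 15 kept their sign on their brightest probe set in every setting. Settings of filter, moderation and control arrays as separate samples cannot change that sign. Of these 15, Col14a1, Col22a1 and Col6a2 each had another tested probe set with the opposite sign. Signs turned for Col4a4 after median centring (0.014) and for Col4a5 (−0.043) and Col8a2 (−0.049) after quantile normalization. Without 1 array the values ran from −0.13 to 0.018 for Col1a1, −0.080 to 0.0045 for Col4a1, −0.44 to 0.17 for Col4a2, −0.084 to 0.15 for Col4a3, −0.13 to 0.10 for Col4a4, −0.35 to 0.21 for Col5a1, −0.089 to 0.25 for Col6a3, −0.048 to 0.088 for Col8a2 and −0.093 to 0.028 for Col9a1. The cause was not tested.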
